A study of Mus musculus with 6 samples.

Results

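The genes described here are 104 protein-coding mouse genes whose names place them in the receptor families that myeloid cells carry, out of 34461 genes in the count table of the series. The rule takes the annotated type and the gene name: the Ms4a, Fcgr, Fcer, Clec, Siglec, Cd300, Lilr, Pilr, Trem, Tlr and Adgre families together with Mrc1, Cd163 and Tyrobp. Of these, 89 had enough counts to be tested and 15 did not. The study asked what becomes of the adult ovary when the epigenetic regulator TRIM28 is lost from its somatic cells. RNA was taken from whole ovaries of female mice aged 7 months, with 3 Trim28 cKO and 3 control libraries. In the cKO mice both floxed Trim28 alleles were deleted by the Nr5a1:Cre transgene, which is driven by the Nr5a1 promoter and acts in somatic cells of the gonad. The controls, per the study's methods, carried either floxed alleles without Cre or 1 floxed allele with Nr5a1:Cre, and the labels do not say which control library is which. All mice had a mixed 129SV and C57BL6/J background.

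Myeloid cells, that is macrophages, monocytes, granulocytes and many dendritic cells, sense their surroundings through families of surface receptors. One large class carries no signalling tail of its own and borrows an adaptor with an immunoreceptor tyrosine-based activation motif (ITAM): TYROBP (DAP12) or the common gamma chain FCER1G. When such a receptor is engaged, Src-family kinases phosphorylate the adaptor and the kinase SYK binds to it. A second class has an inhibitory motif (ITIM) in its tail and recruits phosphatases that oppose this signal. Scavenger receptors and lectins take up ligands, Toll-like receptors (TLRs) read microbial lipids, proteins and nucleic acids through the adaptor MYD88 or TICAM1, and the four-span MS4A proteins accompany other receptors in the membrane. In the ovary, resident macrophages are known to clear dying follicles and regressing corpora lutea.

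The name rule is not the same as myeloid expression. It takes in 16 genes known mainly from other cells, among them Ms4a1 (CD20 of B cells), Clec1a and Clec14a of endothelium, the neonatal Fc receptor Fcgrt and the secreted plasma protein Clec3b (tetranectin). It leaves out Clec7a (dectin-1, the receptor for fungal beta-glucan), which the table annotates as a polymorphic pseudogene, as well as 1 further gene, the pseudogene Clec2f. Clec7a was at 169, 82.1 and 218 CPM in cKO libraries and 14.6, 17.7 and 16.2 CPM in control libraries. CPM here are counts divided by the library's total in units of 1000000 reads, scaled between libraries with TMM.

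Total counts ran from 23615580 to 48508461 per library. The deleted gene itself was at 48.8, 55.6 and 71.2 CPM in cKO ovaries and 155, 178 and 155 CPM in control ovaries, lower in every cKO library (log2 fold change -1.47, SE 0.15, edgeR adjusted p = 0.000663). Whole-ovary markers differed between the groups as well. All 6 Sertoli cell markers were higher in cKO ovaries, and all 6 oocyte markers and 4 of 6 granulosa cell markers were lower. The labels name 3 mice per genotype and do not state that each library is 1 animal, so p-values measure the spread between these libraries.

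Most of the receptor genes were higher in Trim28 cKO ovaries. Of the 89 tested, 68 were higher at an adjusted p of at most 0.05 in edgeR, 2 were lower (Clec1a and Clec14a) and 19 were not called. Across all 18959 genes tested, 20.2% were called higher and 16.8% lower. The median log2 fold change, cKO over control, was 2.23 for the receptor genes and 0.0010 for all genes tested. Of the 16 genes known mainly from other cells, 13 were tested. Among these, 5 were higher, 2 lower and 6 not called, with a median of -0.046. The 3 cKO libraries lay wholly above the 3 control libraries for 70 receptor genes, a pattern seen in 26.7% of all genes, and wholly below them for 3, a pattern seen in 26.1% of all genes. Of the 68, 58 were still called after any single library was left out. In whole tissue, more cells of a type and more RNA per cell cannot be told apart, and this holds for every level given here. Macrophage markers outside the families moved in the same direction: all 10 were higher, and their summed level ran from 1743 to 2634 CPM in cKO libraries and from 318 to 393 CPM in control libraries. Of 6 monocyte markers, 5 were higher and Ly6c2 was not called. Of 7 tested neutrophil markers, 5 were higher, Ltf was lower and Cxcr2 was not called. The neutrophil sum ran from 22.0 to 30.1 CPM in cKO libraries and from 6.65 to 12.9 CPM in control libraries. A second fit, given further on, expresses each member relative to myeloid genes, and Csf1r and Aif1 are both in that list and among the macrophage markers.

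**Figure D1:**
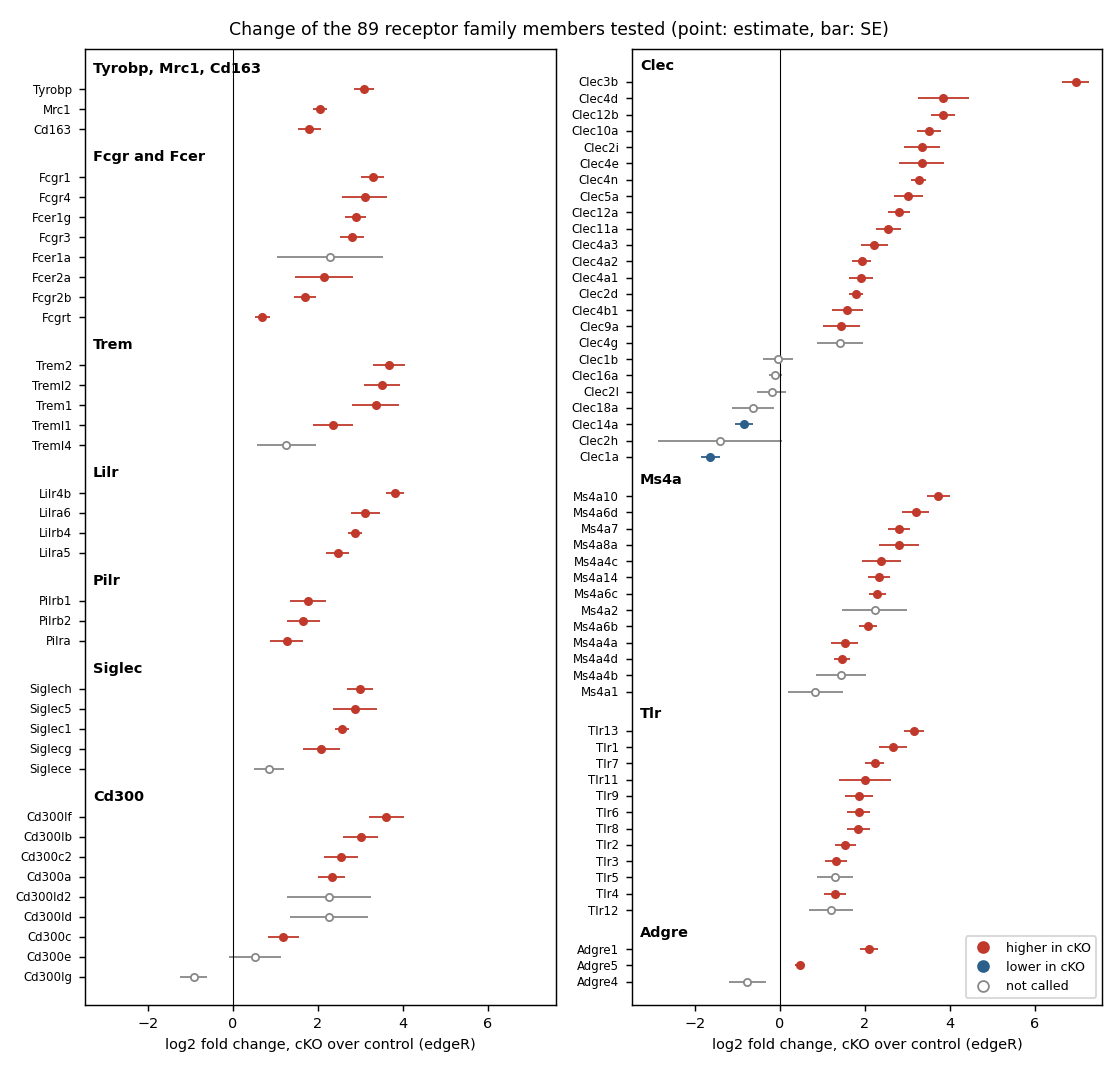
Log2 fold change, cKO over control, of the 89 tested members by family, as the edgeR estimate (point) with its standard error (bar). Red points were called higher (68), blue points lower (2) and open points were not called (19), and Clec3b stands apart at 6.97.

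Part of the group shares a short promoter sequence that the name rule did not use. RefSeq promoters of build GRCm38.p6 (the mm10 assembly), covering 250 bases before to 50 bases after a gene's start, were found for 84 of the 104 genes. They were searched on both strands for GAGGAAGT or AGAGGAAG, 8-base forms of the sequence bound by PU.1, the transcription factor that myeloid cells depend on. These forms can overlap by 7 bases, and a promoter with several matches was counted once. A match was present for 23 of the 84 (27.4%), against 7.62% of the 27025 genes in the promoter table. It did not follow the call: 15 of 56 members higher in cKO ovaries had a match (26.8%), and 4 of 16 members not called (25.0%). Only 1 of the 2 lower members, Clec14a, had a promoter in the table, and it had no match. A match is a run of letters and not a shown binding site. Cd300a, Cd300ld, Cd300ld3, Cd300ld4, Cd300ld5 and Cd300lf all have a match and lie in a single cluster of related genes. Such promoters may not be independent, and the comparison with 7.62% does not allow for this. The 130 bases before a RefSeq start are printed below for 6 members. These are the members called higher with the largest log2 fold changes among those with a match in that stretch. Fcgr3 has 2 RefSeq promoters, and the printed one lies inside the gene's annotated span (171051174 to 171064935). The stretches of Tlr13, Fcgr4 and Clec5a lie partly inside the annotated spans. Those of Tlr13 and Fcgr4 start at 106143204 and 171018920, and that of Clec5a ends at 40585821. Capitals mark the match, which stands on the opposite strand (as ACTTCCTC or CTTCCTCT) in all but Tlr13.
Cd300lf, chr11:115133993-115134122, minus strand: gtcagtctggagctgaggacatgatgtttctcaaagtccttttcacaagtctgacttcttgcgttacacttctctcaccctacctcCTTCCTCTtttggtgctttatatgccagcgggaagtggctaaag
Fcgr1, chr3:96293970-96294099, minus strand: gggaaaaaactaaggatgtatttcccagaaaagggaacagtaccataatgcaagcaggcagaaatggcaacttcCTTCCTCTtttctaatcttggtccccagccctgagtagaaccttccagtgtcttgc
Tlr13, chrX:106143145-106143274, plus strand: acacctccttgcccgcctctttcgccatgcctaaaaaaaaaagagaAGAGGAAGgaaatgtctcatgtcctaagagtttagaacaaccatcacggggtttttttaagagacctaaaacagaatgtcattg
Fcgr4, chr1:171018796-171018925, plus strand: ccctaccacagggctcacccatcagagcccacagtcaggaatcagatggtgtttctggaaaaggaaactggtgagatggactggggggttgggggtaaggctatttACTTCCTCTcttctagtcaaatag
Clec5a, chr6:40585806-40585935, minus strand: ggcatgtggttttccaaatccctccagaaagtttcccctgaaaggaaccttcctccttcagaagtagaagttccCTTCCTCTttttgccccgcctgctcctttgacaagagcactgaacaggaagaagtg
Fcgr3, chr1:171059395-171059524, minus strand: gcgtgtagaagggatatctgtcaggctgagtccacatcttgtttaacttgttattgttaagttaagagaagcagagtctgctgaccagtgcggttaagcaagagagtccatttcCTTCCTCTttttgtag

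Both general ITAM adaptors were higher in cKO ovaries. Tyrobp (chromosome 7, 30413760 to 30417585 of mm10) was at 233, 138 and 223 CPM in cKO libraries and 23.8, 26.3 and 19.8 CPM in control libraries. Every cKO library lay far above every control library, and the log2 fold change was 3.09 (SE 0.23, edgeR adjusted p = 0.000246). Per kilobase of transcript Tyrobp was the most abundant of the 104 genes in cKO ovaries, at a mean of 344 CPM per kb, and second to Fcgrt in control ovaries, at 40.5 CPM per kb. Both places held with exon-union lengths from GENCODE vM21, an alternative chosen after the data were seen. Fcer1g, the gamma chain of Fc receptors and of several lectins, was at 87.9, 60.5 and 102 CPM in cKO libraries against 11.0, 13.8 and 9.25 CPM in control libraries, again without overlap (2.89, SE 0.24, adjusted p = 0.000356). Another adaptor subunit, Ms4a2, is the beta chain of the mast cell IgE receptor. It was at 3.14, 0.982 and 1.51 CPM in cKO libraries and 0.821, 0.0816 and 0.243 CPM in control libraries and was not called (log2 fold change 2.23, SE 0.76, adjusted p = 0.0565), but it was called without control library 1 (3.40, adjusted p = 0.0232). The groups did not overlap, and Ms4a2 was also called with DESeq2, limma-voom or a replicate block. In 11 of 15 alternatives it was not called.

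Most receptors that use these adaptors were higher as well. Of 17 tested receptors that signal through an ITAM adaptor or a single-tyrosine version of the motif, 14 were higher, none was lower, and Fcer1a, Clec1b and Cd300ld were not called. Their median log2 fold change was 3.01, beside 0.0010 for all genes tested. The inhibitory class was close to it in counts: 11 of 12 tested ITIM receptors were higher, with a median of 2.34, and Siglece was not called (0.85, SE 0.36, adjusted p = 0.101). Without control library 2 (1.31, adjusted p = 0.0146) or with limma-voom Siglece was called as well. Clec7a, listed with the ITAM receptors, was left out of their count because of its annotated type. It was higher in the same fit (3.28, SE 0.35, adjusted p = 0.000707).

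Fc receptors bind the constant part of antibodies. Fcgr1, the high-affinity IgG receptor (chromosome 3, 96282909 to 96293969), was at 34.8, 36.7 and 62.2 CPM in cKO ovaries and 4.85, 5.14 and 3.70 CPM in control ovaries. This gave a log2 fold change of 3.29 (SE 0.28, adjusted p = 0.00037), the highest of the 8 tested Fc receptor genes. Fcgr3, an activating receptor of low affinity, was at 138, 89.3 and 154 CPM in cKO libraries and 21.5, 20.5 and 12.5 CPM in control libraries, with no overlap (2.81, SE 0.28). For Fcgr4, the third activating receptor, the spread was wider, at 29.0, 23.1 and 66.0 CPM in cKO libraries and 3.51, 7.72 and 2.79 CPM in control libraries. Its log2 fold change of 3.10 (SE 0.54, adjusted p = 0.00468) was 2.501 without cKO library 3. The sole inhibitory receptor of the group, Fcgr2b, lies beside Fcgr3 and Fcgr4 on chromosome 1. It was at 148, 113 and 169 CPM in cKO ovaries and 53.4, 50.3 and 29.5 CPM in control ovaries, and its log2 fold change of 1.69 (SE 0.25, adjusted p = 0.00249) was smaller than those of its 3 activating counterparts.

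Fcgrt, the neonatal Fc receptor that recycles IgG and albumin in endothelium, epithelium and macrophages, was the most abundant member per kilobase in control ovaries (118 CPM per kb). It was at 230, 150 and 223 CPM in cKO libraries and 115, 137 and 122 CPM in control libraries. The groups did not overlap, but the change was small (log2 fold change 0.69, SE 0.17, adjusted p = 0.0194), and the call was lost without any 1 of cKO library 1, cKO library 3, control library 1 or control library 3 (adjusted p from 0.0569 to 0.0773). Fcer2a (CD23, a low-affinity IgE receptor of B cells) was called higher at under 2 CPM in every library (2.14, SE 0.68, adjusted p = 0.045). Without cKO library 2 its log2 fold change was 1.25, with an adjusted p of 0.128, and the call was also lost without any 1 of the control libraries.

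The Trem family, clustered on chromosome 17 within 134 kb, summed to 211, 83.2 and 137 CPM in cKO libraries and 13.6, 10.3 and 13.1 CPM in control libraries, with cKO library 1 the highest. Trem2, a receptor for lipids and lipoproteins that pairs with TYROBP, was at 200, 75.0 and 121 CPM in cKO ovaries and 11.3, 7.88 and 11.6 CPM in control ovaries. Even the lowest cKO library lay far above the highest control library, and the log2 fold change was 3.68 (SE 0.38, adjusted p = 0.000659). Treml2 (3.51, SE 0.42) and Trem1, an amplifier of inflammatory signals that also pairs with TYROBP (3.36, SE 0.56), were higher from low levels, with means of 7.43 and 0.799 CPM in cKO ovaries and 0.646 and 0.0789 CPM in control ovaries. Treml1, known from platelets, was higher too (2.36, SE 0.47), at no more than 0.737 CPM in any library. Treml4, known from dendritic cells and spleen macrophages, was not called (1.25, SE 0.69, adjusted p = 0.201), except without cKO library 1 (1.70, adjusted p = 0.0482). Without cKO library 3 its log2 fold change was 0.35 (adjusted p = 0.690).

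**Figure D2:**
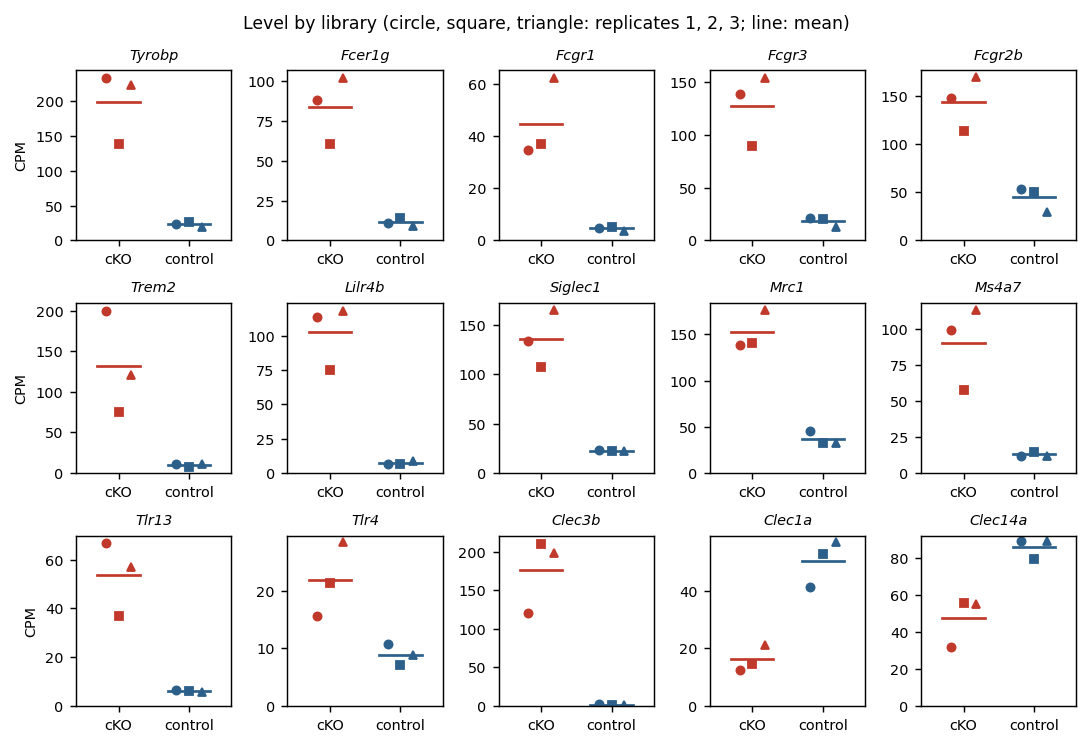
Level in CPM of 15 members in each library, with cKO left of control, markers for replicates 1 to 3 and a line for the group mean (n = 3 each). In 13 panels every cKO library lies above every control library, and in the panels of Clec1a and Clec14a every cKO library lies below.

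All 4 Lilr genes and all 3 Pilr genes tested were higher. Lilr4b (gp49A, chromosome 10) was at 114, 75.1 and 118 CPM in cKO libraries and 6.85, 6.61 and 8.43 CPM in control libraries, the largest change of its family (3.81, SE 0.21, adjusted p = 0.000133). Its inhibitory neighbour Lilrb4 (gp49B), at 50.01, 52.0 and 68.6 CPM in cKO and 8.57, 6.86 and 7.75 CPM in control libraries, had a log2 fold change of 2.88 (SE 0.17). The neighbours are near copies of each other, and 35.3% of the exon bases of Lilrb4 lie also in the read-through gene Gm49339, so the counts of these genes are uncertain. Lilra6 (3.12, SE 0.34) and Lilra5 (2.46, SE 0.26), both activating receptors, were higher at means of 7.24 and 21.7 CPM in cKO ovaries and 0.834 and 3.97 CPM in control ovaries. The Pilr genes encode a pair of activating receptors, Pilrb1 and Pilrb2, and their inhibitory counterpart Pilra. Their log2 fold changes were 1.77 (SE 0.43), 1.66 (SE 0.39) and 1.26 (SE 0.39). All 3 calls were lost without control library 1 or control library 3 (adjusted p from 0.0522 to 0.121), and that of Pilra also without cKO library 2 or cKO library 3 (0.0739 and 0.114). Pilra also shares 15.1% of its exon bases with Zcwpw1 on the other strand.

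Siglecs bind sialic acid. Siglec1 (sialoadhesin, CD169), an adhesion receptor of tissue macrophages, was at 133, 107 and 165 CPM in cKO ovaries and at 23.6, 22.5 and 22.1 CPM in control ovaries. The control libraries were nearly equal and all cKO libraries were far above them (2.57, SE 0.17, adjusted p = 0.000184). Siglech, a marker of plasmacytoid dendritic cells and microglia, was at 12.0, 16.2 and 8.03 CPM in cKO libraries and 1.33, 1.51 and 1.68 CPM in control libraries (3.00, SE 0.30, adjusted p = 0.000609). Of 6 plasmacytoid dendritic cell markers, 4 were higher and 1, Tcf4, was lower, and their sum ran from 382 to 594 CPM in cKO libraries and from 456 to 545 CPM in control libraries. Siglec5 (Siglec-F of eosinophils and alveolar macrophages; 2.87, SE 0.53) and Siglecg of B cells (2.08, SE 0.43) were higher from means of 0.187 and 0.548 CPM in control ovaries. Of 7 B cell markers 4 were higher, with sums from 84.0 to 125 CPM in cKO libraries and from 17.5 to 21.6 CPM in control libraries, and their part in the values of Siglecg and Fcer2a was not tested. Of 7 eosinophil markers, 2 could be tested and neither was called, and their sum was below 1 CPM in every cKO library and at most 2.44 CPM in control libraries.

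In the Cd300 family, whose members bind lipids on dying cells, 5 of 9 tested genes were higher. The inhibitory receptor Cd300lf was at 26.4, 22.5 and 32.8 CPM in cKO libraries and 1.36, 1.55 and 3.67 CPM in control libraries, far apart (3.61, SE 0.41, adjusted p = 0.00086). Without control library 3 its log2 fold change was 4.23. The activating receptor Cd300lb (3.01, SE 0.41), Cd300c2 (2.54, SE 0.40) and the inhibitory Cd300a (2.33, SE 0.32) were higher as well. Cd300c was called at 0.172 CPM in control ovaries (1.19, SE 0.37, adjusted p = 0.040), and the call was lost without any single library (adjusted p from 0.0605 to 0.147). Cd300lg, which differs from its relatives in being known from capillary endothelium, was at 5.16, 6.80 and 12.0 CPM in cKO ovaries and 16.1, 12.2 and 17.3 CPM in control ovaries. All its cKO libraries were below all control libraries, and the adjusted p was 0.0586 (log2 fold change -0.93, SE 0.32). Without cKO library 3, its highest, Cd300lg was called lower (-1.34, adjusted p = 0.00926). It was also called lower with scaling by library totals alone, DESeq2, limma-voom or a replicate block. In 10 of 15 alternatives it was not called.

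The C-type lectin-like (Clec) genes were the most mixed family: 16 of 24 tested members were higher, both lower members were Clec genes, and 6 were not called. A set of 3 receptors for fungal and mycobacterial glycans that lie together on chromosome 6 and use FCER1G were higher. Clec4n (dectin-2) was at 39.4, 28.3 and 36.6 CPM in cKO libraries and 4.08, 3.59 and 3.16 CPM in control libraries (3.27, SE 0.18, adjusted p = 0.000133). Clec4d was at 29.9, 7.49 and 14.2 CPM in cKO libraries and 1.64, 0.612 and 1.24 CPM in control libraries (3.85, SE 0.59, adjusted p = 0.0029), and its log2 fold change was 3.20 without cKO library 1, the highest. Clec4e (Mincle) was higher from 0.159 CPM in control ovaries (3.34, SE 0.52), and its log2 fold change was 3.94 without control library 2. Within the same 368 kb of chromosome 6, the inhibitory Clec4a2 (1.93, SE 0.23) and its relatives Clec4a1 (1.92, SE 0.29), Clec4a3 (2.23, SE 0.31) and Clec4b1 (1.59, SE 0.37) were higher, so that all 7 tested genes of this cluster were. The call of Clec4b1 was lost without control library 1 or 3 (adjusted p = 0.0616 and 0.0550).

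Clec10a, a lectin for galactose and N-acetylgalactosamine on macrophages and dendritic cells, was at 53.0, 85.2 and 109 CPM in cKO ovaries and 7.33, 8.49 and 5.95 CPM in control ovaries (3.51, SE 0.29, adjusted p = 0.000355). The inhibitory Clec12b was at 20.6, 25.0 and 13.1 CPM in cKO libraries against 1.28, 1.43 and 1.37 CPM in control libraries (3.84, SE 0.28, adjusted p = 0.000246), while its relative Clec12a, a receptor for uric acid crystals, had a log2 fold change of 2.80 (SE 0.26). Clec5a, which pairs with TYROBP, was higher from 0.702 CPM in control ovaries (3.02, SE 0.35). Clec2d (1.80, SE 0.17) and Clec2i (3.34, SE 0.43), ligands for receptors of natural killer cells, were also higher.

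The largest log2 fold change among the 89 tested members belonged to one that is no myeloid receptor. Clec3b (chromosome 9, 123150946 to 123157432), which encodes tetranectin, a secreted plasminogen-binding protein of plasma and connective tissue, was at 121, 211 and 199 CPM in cKO ovaries and 1.82, 1.39 and 1.04 CPM in control ovaries. Its log2 fold change was 6.97 (SE 0.33, adjusted p = 0.000114). It was highest in cKO library 2, where the summed level of all members was lowest. Clec11a, a secreted growth factor of bone marrow stroma, was likewise higher, at 12.9, 18.5 and 17.3 CPM in cKO libraries and 1.92, 3.76 and 2.66 CPM in control libraries (2.56, SE 0.29). Of 6 stromal markers, 2 were higher (Dcn and Col1a1) and 1 was lower (Pdgfrb), and their part in these values was not tested.

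Both lower members are known from endothelium. Clec1a (chromosome 6) was at 12.4, 14.6 and 21.3 CPM in cKO ovaries and 41.4, 52.7 and 57.0 CPM in control ovaries, without overlap (-1.64, SE 0.22, adjusted p = 0.00178). Clec14a, which supports vessel sprouting, was at 31.9, 55.5 and 55.2 CPM in cKO libraries and 89.1, 79.0 and 88.9 CPM in control libraries (-0.85, SE 0.21, adjusted p = 0.0191), and this call was lost without control library 1 or control library 3 (adjusted p = 0.0569 and 0.0513). Of 6 endothelial markers, Cldn5 was higher and Pecam1, Cdh5, Kdr, Tek and Emcn were not called. The sum of the 6 ran from 439 to 581 CPM in cKO libraries and from 447 to 502 CPM in control libraries. The part of endothelial cells in the values of Clec1a and Clec14a was not tested. Clec16a, a broadly expressed gene known for its part in autophagy, was at 46.0, 51.9 and 36.8 CPM in cKO and 42.0, 54.1 and 49.7 CPM in control ovaries (-0.11, SE 0.16, adjusted p = 0.60).

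All 18 Ms4a genes of the table lie within 679 kb of chromosome 19, and 10 of the 13 tested were higher. Ms4a7 and Ms4a6d, both known from macrophages, were at 99.5, 57.7 and 113 CPM and at 62.4, 36.4 and 56.9 CPM in cKO libraries. In control libraries Ms4a7 was at 12.1, 14.8 and 11.7 CPM and Ms4a6d at 7.03, 6.41 and 3.58 CPM. Their log2 fold changes were 2.81 (SE 0.26) and 3.20 (SE 0.32). The highest of the family was that of Ms4a10, at 25.7, 20.5 and 20.1 CPM in cKO ovaries and 1.15, 2.29 and 1.59 CPM in control ovaries (3.73, SE 0.28, adjusted p = 0.000247). Ms4a4d (1.47, SE 0.19) and Ms4a4a, a partner of dectin-1 in human macrophages (1.53, SE 0.32), were the lowest of those called. Ms4a6c was higher (2.29, SE 0.20), but 53.1% of its exon bases overlap BE692007 on the other strand. How reads over these bases were counted is uncertain, because no source used here states whether strand was used in counting. Besides Ms4a2, the B cell gene Ms4a1 (0.83, SE 0.65) and Ms4a4b of T cells (1.45, SE 0.59, adjusted p = 0.0946) were not called. Without cKO library 1 Ms4a4b was called (1.84, adjusted p = 0.036), and without cKO library 3 it was at 0.68 (adjusted p = 0.321). With DESeq2 it was called too. Ms4a1 turned its sign without cKO library 2 (-0.18, adjusted p = 0.80).

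The classical uptake receptors of tissue macrophages were higher. Mrc1 (CD206), the mannose receptor, was at 138, 141 and 177 CPM in cKO ovaries and 45.0, 32.5 and 32.9 CPM in control ovaries (2.05, SE 0.17, adjusted p = 0.000358). Cd163, which takes up haptoglobin bound to haemoglobin, was at 13.6, 12.9 and 19.7 CPM in cKO libraries and 5.85, 4.16 and 3.28 CPM in control libraries (1.80, SE 0.28, adjusted p = 0.00288). Neither gene's groups overlapped. Adgre1, which encodes the macrophage antigen F4/80, was at 84.9, 76.5 and 108 CPM in cKO ovaries and 22.5, 24.6 and 15.8 CPM in control ovaries (2.10, SE 0.21, adjusted p = 0.000563). Adgre5 (CD97), found on most leukocytes and on other cells, was at 94.8, 75.6 and 101 CPM in cKO and 61.0, 67.0 and 67.2 CPM in control libraries. Its change of 0.47 (SE 0.13, adjusted p = 0.0235) lost the call without any 1 library other than cKO library 2 (adjusted p from 0.0526 to 0.0930), and 23.8% of its exon bases overlap Ddx39 on the other strand. Adgre4 was not called (-0.77, SE 0.44, adjusted p = 0.213).

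Among Toll-like receptors, 10 of 12 were higher, with a median log2 fold change of 1.85 against 2.23 for all members tested. The endosomal receptor Tlr13, which reads bacterial ribosomal RNA, led the family at 66.9, 36.8 and 57.1 CPM in cKO ovaries and 6.49, 5.92 and 5.53 CPM in control ovaries (3.16, SE 0.23, adjusted p = 0.000247). Tlr7 and Tlr8, receptors for single-stranded RNA, were at log2 fold changes of 2.23 (SE 0.23) and 1.84 (SE 0.27), and Tlr9, for unmethylated CpG DNA, at 1.87 (SE 0.33). Tlr3, which binds double-stranded RNA and is not confined to leukocytes, was at 21.0, 31.6 and 44.7 CPM in cKO libraries and 13.6, 12.7 and 12.5 CPM in control libraries (1.33, SE 0.26, adjusted p = 0.00738). At the cell surface, Tlr1 changed most (2.67, SE 0.34), followed by Tlr6 (1.85, SE 0.27) and Tlr2 (1.54, SE 0.25), with which both form lipopeptide receptors. Tlr4, the lipopolysaccharide receptor, was at 15.7, 21.4 and 28.6 CPM in cKO ovaries and 10.8, 7.18 and 8.81 CPM in control ovaries (1.29, SE 0.26, adjusted p = 0.00781). The flagellin receptor Tlr5 did not overlap between the groups but missed the threshold (1.30, SE 0.43, adjusted p = 0.052), which it passed without cKO library 1 or control library 1 (adjusted p = 0.045 and 0.0291). Tlr5 also passed it with no filter, the stricter filter, DESeq2 or limma-voom.

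A second fit asked which members changed by more or less than myeloid genes in general. Each library was scaled by the geometric mean of 10 pan-myeloid genes (Csf1r, Aif1, Laptm5, Spi1, Itgb2, Cybb, Mpeg1, Ptprc, Coro1a and Cd53), whose mean level was 120, 99.4 and 157 CPM in cKO libraries and 21.6, 25.3 and 18.9 CPM in control libraries. On this scale 52 of the 89 members were not called, 26 were lower and 11 were higher. Across all genes tested, 89.1% were lower and 2.12% higher on it, since the scaling itself lowers every gene that did not rise with the myeloid genes. With most genes called, the adjustment on this scale is slight. Its adjusted p-values lie close to unadjusted ones and are less strict than those of the main fit. The median was -0.30 for the members and -2.49 for all genes tested.

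The 11 members above the pan-myeloid genes were Clec3b (4.49, SE 0.35), Clec12b (1.42, SE 0.42), Clec4d (1.31, SE 0.43), Lilr4b (1.26, SE 0.31), Ms4a10 (1.26, SE 0.41), Trem2 (1.13, SE 0.30), Cd300lf (1.03, SE 0.39), Clec10a (1.01, SE 0.31), Clec4n (0.76, SE 0.36), Fcgr1 (0.76, SE 0.35) and Ms4a6d (0.70, SE 0.33). Clec3b, Clec12b, Lilr4b, Ms4a10 and Clec10a, 5 of the 11, kept the call under all 10 alternatives of this fit. Trem2 and Clec4d rested on cKO library 1: without it their log2 fold changes were 0.65 (adjusted p = 0.0859) and 0.57 (adjusted p = 0.274), and 7 members were called. Without control library 2 or control library 3, 8 members were called higher. Cd300lf lost its call without cKO library 2, control library 1 or control library 2, Clec4n without cKO library 1 or any 1 control library, and Ms4a6d without cKO library 1, control library 2 or control library 3. Clec4n and Ms4a6d also lost it with a replicate block in the model and when the scale was taken as a median of ratios.

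Tyrobp and Fcer1g themselves were not called on the pan-myeloid scale (0.57, SE 0.29, adjusted p = 0.0563, and 0.37, SE 0.30, adjusted p = 0.241), nor were Mrc1 (-0.47, SE 0.29) and Cd163 (-0.73, SE 0.38). A miss does not show that they changed by the same factor as the scaling genes. Among the 26 members below the pan-myeloid genes were the 2 lower members and Cd300lg, which are known from endothelium, Fcgrt (-1.83, SE 0.31) and Adgre5 (-2.04, SE 0.31). Another 5 were Toll-like receptors: Tlr2 (-0.96, SE 0.34), Tlr3 (-1.21, SE 0.32), Tlr4 (-1.25, SE 0.34), Tlr5 (-1.14, SE 0.48) and Tlr12 (-1.43, SE 0.40). The inhibitory Fcgr2b was lower (-0.81, SE 0.30, adjusted p = 0.00734), and Fcgr1 was higher, so the estimates of Fcgr2b and Fcgr1 lay on opposite sides of the myeloid scale. The activating Fcgr3 (0.29, SE 0.30, adjusted p = 0.334) and Fcgr4 (0.54, SE 0.35, adjusted p = 0.132) were not called on it. The call of Fcgr1 was lost in 6 of 10 alternatives and that of Fcgr2b in 2. The calls of Fcgr2b and Tlr2 were lost without control library 1, that of Tlr5 without cKO library 1, cKO library 3 or control library 1, and that of Fcgr1 without cKO library 3 or any 1 control library. Those of Fcgr2b, Tlr5 and Fcgr1 were also lost with a replicate block in the model. That of Fcgr1 was lost as well when the scale was taken as a median of ratios.

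**Figure D3:**
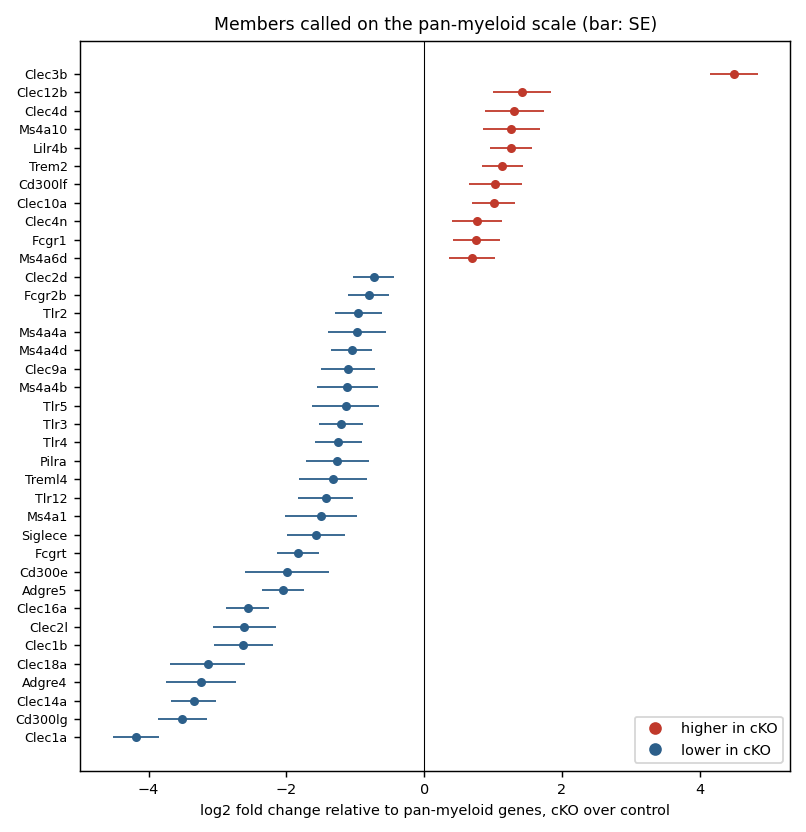
Log2 fold change, cKO over control, of the 37 members called when libraries were scaled by 10 pan-myeloid genes, with standard errors as bars. The 11 members in red were higher and the 26 in blue lower, from 4.49 for Clec3b to -4.19 for Clec1a.

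The unequal changes altered the make-up of the group. Summed over all 104 genes, the members reached 3083, 2596 and 3731 CPM in cKO ovaries and 882, 915 and 814 CPM in control ovaries. The Trem family took 6.83, 3.20 and 3.67% of this sum in cKO libraries and 1.54, 1.12 and 1.61% in control libraries, and the Lilr family 6.37, 5.78 and 5.85% against 2.30, 2.15 and 2.40%. Both groups of shares were apart in every library. The Clec family took 18.1, 27.5 and 21.8% in cKO libraries and 28.5, 30.1 and 34.0% in control libraries, and the Adgre family from 5.65 to 5.91% and from 9.73 to 10.3%. Fcgrt alone made up 7.46, 5.79 and 5.97% of all member transcripts counted in cKO ovaries and 13.0, 14.98 and 14.9% in control ovaries. The number of members with a mean of at least 10 CPM was 53 in cKO ovaries and 18 in control ovaries, and 9 members against 1 reached 100 CPM.

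**Figure D4:**
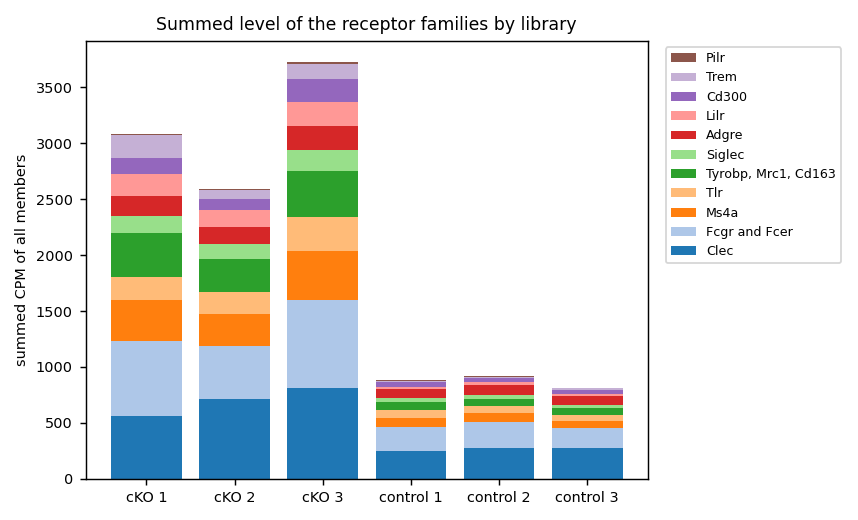
Summed CPM of the 104 members in each library, stacked by family, cKO libraries at the left. The cKO bars reach 2596 to 3731 CPM and the control bars 814 to 915 CPM.

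Some members varied more within a group than between the groups, together with markers of a particular cell type. Fcer1a, the IgE-binding chain of mast cells and basophils, was at 10.4, 1.64 and 3.995 CPM in cKO libraries and 2.82, 0.367 and 0.0221 CPM in control libraries and was not called (2.29, SE 1.24, adjusted p = 0.191), whereas without control library 1 it was (4.98, adjusted p = 0.0356). Without cKO library 1 its log2 fold change was 1.38 (adjusted p = 0.473), and without control library 3 it was 1.70 (adjusted p = 0.26). In both groups library 1 was the highest. The mast cell protease genes had the same order: Cpa3 was at 61.8, 13.3 and 33.9 CPM in cKO and 20.7, 2.37 and 0.686 CPM in control libraries, and Tpsb2 at 61.1, 13.1 and 35.8 CPM and 14.3, 2.20 and 0.620 CPM. Of 10 mast cell markers, 2 (Hdc and Hpgds) were higher. Their sum ran from 284 to 419 CPM in cKO libraries and from 76.1 to 133 CPM in control libraries, and Tpsab1 was at 0 in control library 3.

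Another set was highest in cKO library 3. This does not set it apart, since the summed level of all members was also highest there (3731 CPM, against 3083 and 2596 CPM in cKO libraries 1 and 2). Clec9a, a receptor for actin of dead cells on cross-presenting dendritic cells, was at 5.90, 11.9 and 21.7 CPM in cKO libraries and 4.36, 5.88 and 4.29 CPM in control libraries (1.45, SE 0.45, adjusted p = 0.0397). Tlr11 and Tlr12, which bind profilin of protozoa, were at 2.02, 4.20 and 8.66 CPM and at 4.07, 7.83 and 18.6 CPM in cKO libraries, and at 0.975, 2.04 and 0.752 CPM and 3.85, 4.20 and 5.22 CPM in control libraries. Tlr11 was called (2.01, SE 0.61, adjusted p = 0.0379), and Tlr12 was not (1.20, SE 0.51, adjusted p = 0.108) unless cKO library 1 was left out (1.58, adjusted p = 0.027) or DESeq2 was used.

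Treml4, Ms4a4b and Cd300ld were likewise highest in cKO library 3 and lowest in cKO library 1 and were not called, the last at 4.14, 11.6 and 33.6 CPM in cKO and 4.90, 4.94 and 0.642 CPM in control libraries (2.25, SE 0.92, adjusted p = 0.0963). So was Xcr1, a marker of the same dendritic cells as Clec9a, at 2.28, 6.94 and 12.5 CPM in cKO libraries and 1.44, 1.84 and 0.752 CPM in control libraries. The control libraries did not share this order: in control library 3 Xcr1 was lowest and Tlr12 highest. Without cKO library 3 the log2 fold changes of Clec9a and Tlr11 were 0.89 (adjusted p = 0.101) and 1.34 (adjusted p = 0.108), and those of Tlr12 and Cd300ld 0.43 (adjusted p = 0.376) and 1.19 (adjusted p = 0.323). The calls of Clec9a and Tlr11 were also lost without cKO library 2, control library 1 or control library 3, and that of Clec9a without control library 2. Of 6 dendritic cell markers 3 were higher (Flt3, Xcr1 and Batf3), with sums from 47.0 to 74.5 CPM in cKO libraries and from 56.6 to 63.1 CPM in control libraries, and of 9 markers of T and NK cells 4 were. The part of these cells in the values was not tested.

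**Figure D5:**
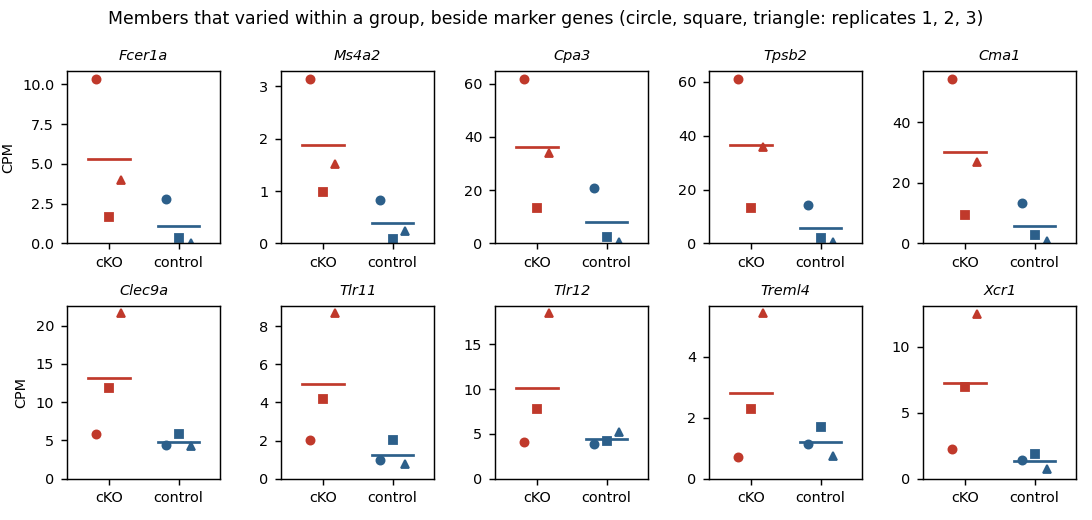
Level in CPM of members that varied within a group (Fcer1a, Ms4a2, Clec9a, Tlr11, Tlr12 and Treml4) and of marker genes of mast cells (Cpa3, Tpsb2 and Cma1) and dendritic cells (Xcr1), cKO left of control, with markers for replicates 1 to 3 and a line for the mean. The upper row is highest in replicate 1 of each group and the lower row in cKO replicate 3.

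Genes that act downstream of these receptors were changed in part. Of 22 genes of ITAM and ITIM signalling, 16 were higher and Prkcd was lower, with a median log2 fold change of 1.65. The kinase Syk, which binds phosphorylated adaptors, was at 124, 111 and 122 CPM in cKO ovaries and 31.4, 31.6 and 28.2 CPM in control ovaries (1.97, SE 0.10, adjusted p = 0.000114), and the phosphatase Ptpn6 that ITIMs recruit had a change of 2.28 (SE 0.28). Src, Ptpn11, Malt1, Dok1 and Dok2 were not called. For TLR signalling, 13 of 27 genes were higher and Traf6 and Map3k7 were lower, with a median of 0.28. The accessory proteins at the receptors were among the 13, such as Cd14 (2.42, SE 0.25), Cd180 (2.64, SE 0.40), Ly86 (3.26, SE 0.28) and the chaperone of endosomal TLRs, Unc93b1 (1.55, SE 0.16). Lbp, a secreted carrier of lipopolysaccharide that is not limited to myeloid cells, had the highest change of that list (4.05, SE 0.25).

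Among 14 tested ligands and cargo proteins described for members, 9 were higher and 2 were lower. The TREM2 ligands Apoe and Clu had log2 fold changes of 2.42 (SE 0.25) and 2.44 (SE 0.26), and Hp, which Cd163 takes up together with haemoglobin, one of 3.55 (SE 0.56). Pdpn, the ligand of the platelet receptor Clec1b, was higher (2.03, SE 0.15), and Clec1b itself was at 3.85, 3.88 and 5.29 CPM in cKO and 3.64, 2.94 and 6.82 CPM in control libraries (-0.05, SE 0.35, adjusted p = 0.931). Its groups overlapped fully. The IgG2c heavy chain gene Ighg2c, a ligand of Fc receptors, was lower (-3.29, SE 1.03, adjusted p = 0.0423), at 0.962, 2.10 and 3.91 CPM in cKO libraries and 18.6, 48.4 and 2.21 CPM in control libraries, which overlap. Of 17 genes known to rise in TREM2-positive macrophages, 15 were higher, with a median of 1.97. They include Gpnmb, at 5.20 (SE 0.46), Lyz2, at 3.44 (SE 0.34), and Itgax, at 3.32 (SE 0.24), while Ctsl and Plin2 were not called. Of 26 myeloid surface receptors outside the name rule, 21 were higher and none was lower, with a median of 2.00 beside 2.23 for the members.

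The genes that could not be tested complete the account. All 15 had at most 50 counts in any library: Cd300ld3, Cd300ld4, Cd300ld5, Clec2e, Clec2g, Clec3a, Clec4a4, Clec4b2, Ms4a3, Ms4a5, Ms4a13, Ms4a15, Ms4a18, Siglec15 and Trem3. Clec4a4, known from a subset of dendritic cells, had 4, 5 and 3 counts in cKO libraries and 0 in every control library. With sampling noise alone, that would allow up to 3 expected counts over the control group, but libraries of a group differed by more than such noise. Ms4a15 had 5, 5 and 2 counts in cKO libraries and likewise 0 in control libraries. Clec2g, with 4, 50 and 23 counts in cKO libraries and 7, 1 and 1 counts in control libraries, was the most abundant of the 15. By position, 76 of the 104 genes lay in 13 clusters in which neighbours were at most 1 Mb apart, and 28 stood alone. Of the 10 members within 790 kb on chromosome 6 that include Clec1a, Clec2d, Clec12a and Clec12b, 5 were higher, 1 was lower and 2 were not called, so that neighbours differed in direction.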

How the data were processed

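Polyadenylated RNA from 600 ng of total ovarian RNA was made into strand-marked libraries and sequenced single-end by the authors. Per the labels and the study's methods, reads were mapped to mm10 with STAR 2.5.3a and counted per Ensembl gene with HTSeq 0.6.1p1, unique alignments only, so reads shared by near-identical receptor copies are lost. The submitters' notes also name bcl2fastq 2.17.1.14. The deposited raw counts were used. The deposited signal columns (counts divided by a DESeq2 1.16.1 size factor, and the same per kb) and the authors' own comparison (log2 fold change, p-value, adjusted p) were not used.

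After filterByExpr (minimum count 10, minimum total 15) and TMM, a robust quasi-likelihood model (glmQLFit, then glmQLFTest) was fitted with edgeR 4.0.16 under R 4.3.3, with Benjamini-Hochberg adjustment over 18959 genes and a threshold of 0.05. SE is the log2 fold change divided by the square root of F. A second fit scaled libraries by the geometric mean of 10 pan-myeloid genes' counts plus 0.5. The fit was tested on simulated data. Lists are described by counts and medians. No source used here states the strand setting of the counting. Alternatives were other scaling, filters and thresholds, DESeq2 1.42.0, limma-voom (limma 3.58.1), a replicate block and each library left out. Library pairs of a group differed by more than sampling noise, with a chi-square of 32.7 to 98.5 times its degrees of freedom. Named genes were Tyrobp, Fcer1g, Mrc1, Cd163, Trem2 and, per family, the 2 most abundant per kb, the 2 with the most positive and the 2 with the least positive change among called members, and all lower members. Others were named after their values were seen. Members, lists and tests were chosen with earlier results of these data known. Siglecf and Lilrb4a of the lists are Siglec5 and Lilrb4 in the table, matched by Ensembl ID. The listed names Clec4f, Lilrb4b and Ly6g had no match among the gene types used. Clec7a was left out of the ITAM receptor list because of its annotated type. Python 3.11.15 with pandas 2.3.3 read promoters and gene positions.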

Additional observations from a re-analysis of the deposited data

How the results depend on the processing

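The number of members higher in cKO ovaries (68) lay between 58, under a threshold of 0.01, and 71, with the Wald test of DESeq2, over 15 alternatives, and between 59 and 70 with each library left out. The number of lower members (2) was 1 under that threshold and with a log2 fold change beyond 1, where Clec1a alone was called, and lay between 1 and 4 with each library left out. The 4, without cKO library 3, were Clec1a, Clec14a, Cd300lg and Clec2h. With library totals alone, DESeq2, limma-voom or the replicate block, Cd300lg was lower beside Clec1a and Clec14a. Relative to the pan-myeloid genes, the 11 higher members became 7 to 13 and the 26 lower members 19 to 26 with each library left out. With the replicate block 62 members were higher and 3 lower, and 8 were higher and 23 lower on the pan-myeloid scale. With a median of ratios as that scale, 8 members were higher and 30 lower. The replicate numbers do not pair the libraries: deviations of same-numbered libraries correlated at -0.070, 0.059 and -0.168. For the 47 members given by the naming rule no log2 fold change turned its sign in any alternative run, while 38 of the single-gene alternatives lost a call and 3 gained one (2 for Siglece, 1 for Treml4), against 613 that kept it. Of other members, Ms4a1, Clec16a, Clec1b and Clec2l, none of them called, changed sign in at least 1 alternative. The stricter filter (1 CPM in 3 libraries) gave 62 higher members, 61 of them among the 68: Cd300c, Clec4e, Fcer2a, Ms4a8a, Siglec5, Trem1 and Treml1 could not be tested under it, and Tlr5 was gained. With exon-union lengths, chosen after seeing the data, Fcgrt ranked 3 and Clec3b 2 per kb in cKO ovaries, in place of 2 and 3. DESeq2 size factors and library totals alone left the count of higher members at 68.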
